A study of Homo sapiens with 16 samples.

Results

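What the higher of 2 doses of CC-671 added within 6 h was asked by comparing CAL51 cells given 10 µM with CAL51 cells given 3 µM for the same time. CAL51 is an established human triple-negative breast cancer line, used at passage 10, grown in DMEM with 10% serum, and labelled near-diploid with 28% of cells tetraploid. CC-671 inhibits TTK and CLK2. The comparison took 3 libraries at 10 µM and 3 at 3 µM, all at 6 h, which are 6 of the 16 libraries of the series. The others are 2 DMSO vehicle libraries at 6 h, the same doses at 24 h with 3 libraries each, and 2 vehicle libraries at 24 h. Vehicle libraries at 6 h give levels, and both vehicle pairs otherwise enter only the scaling of printed levels and an alternative fit of all 16 libraries. All 6 libraries of the comparison thus came from cells exposed to the compound, and no vehicle library entered its test as reported. Libraries of 1 group are labelled biological replicates, so each p-value rests on how far such libraries differ. A single line in culture has no stroma, immune cells or vessels.

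TTK (MPS1) is a protein kinase of the spindle assembly checkpoint, which holds cells in mitosis until every kinetochore has attached to microtubules. CLK2 belongs to the CLK family, which phosphorylates SR proteins in the nucleus and thereby moves them between nuclear speckles and sites of splicing. Loss of CLK activity alters exon choice, and transcripts that are wrongly spliced can be retained in the nucleus or degraded. A dose step can add inhibition of the named targets or of other kinases, and gene-level counts do not separate these.

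Gene counts summed to 110206660 to 120064702 read pairs in each of the 6 libraries, and 20529 of 55510 symbols passed the filter on low counts. Libraries of 1 group correlated at r of 0.997 across genes, and differed by more than counting noise alone would give. Epithelial genes were present at both doses (EPCAM, the adhesion molecule of epithelia, at 342, 357 and 371 CPM at 3 µM and 336, 368 and 346 at 10 µM), 0 of 9 epithelial markers were called by edgeR or DESeq2 (2 had an unadjusted p under 0.05), and the hormone receptor genes ESR1 and PGR had at most 4 pairs in any of the 6 libraries. CPM is the count of a gene scaled to a common library total, with a scaling factor per library (TMM) estimated over all 16 libraries. Of 10 leukocyte markers 5 could be tested, and CD14 and CD79A were called higher. The summed level of those tested was 12 to 12.3 CPM at 3 µM and 12.3 to 13.1 at 10 µM. PTPRC made up most of that sum and had the opposite sign, without a call (-0.14 ± 0.06). It was at 9.21, 8.965 and 9.65 CPM at 3 µM and 8.54, 7.8 and 9.02 at 10 µM. The call of CD79A ended without 3 µM replicate 1 or 3 or 10 µM replicate 3. The T cell marker CD3E had at most 2 pairs in a library. None of 6 fibroblast and 3 endothelial markers tested was called by either tool (548 to 558 against 566 to 589 CPM and 11.2 to 12.3 against 10.6 to 11.5 CPM in sum, with 3 and 0 unadjusted p-values under 0.05). All 5 erythroid markers were untestable, with at most 10 pairs in a library. Of 7 mesenchymal markers VIM alone was called, higher by 0.15 ± 0.04 on the log2 scale. In RNA from whole cultures, fewer cells of a kind and less RNA per cell cannot be told apart.

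One library stood apart from its group. In 10 µM replicate 1, 32 of 13012 genes whose average log2 CPM was 1 or more were at least 1.5-fold above both other 10 µM libraries, against 0 to 2 in each of the other 5 libraries. These genes included IL8, IL6, CXCL1, CXCL2, CXCL3, ATF3, EGR1, FOSB, HMOX1, TRIB3, the heat shock gene HSPA6 and the ribosomal RNA gene RNA18S5. None of the 32 was called by edgeR in the comparison, and 2 had an unadjusted p under 0.05.

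The higher dose changed many genes by small amounts. At adjusted p under 0.05, 3420 of 20529 genes differed between the doses (16.7%), 1577 of them higher at 10 µM (7.68%) and 1843 lower (8.98%). The median absolute log2 fold change of these was 0.23, and 3010 of them changed by less than 1.5-fold. At least 2-fold changes were seen in 124 genes that were higher (0.604%) and 12 that were lower (0.0585%), and 122 of the 124 and all 12 had an average log2 CPM under 1. The 3 libraries of one dose did not overlap those of the other in 98.07% of the called genes and in 34.3% of all genes tested. The number of calls depended on single libraries: 519 genes were higher and 739 lower without 3 µM replicate 3, 870 were higher without 3 µM replicate 2 and 921 without 10 µM replicate 1. Of the 2-fold changes, 57 higher were left without 3 µM replicate 3, and 6 lower without 3 µM replicate 2 or 3. PRRG4, which encodes a membrane Gla protein, and BCLAF1, which encodes a nuclear RNA-binding protein, were singled out after their values were seen, because they had the smallest p-values. PRRG4 was measured at 0.834, 0.86 and 0.827 CPM at 3 µM and 2.22, 2.38 and 2.13 at 10 µM, with 0.10 and 0.0602 in vehicle (log2 fold change 1.41 ± 0.11 SE, adjusted p = 6.46e-06). BCLAF1 was at 219, 210.5 and 209.7 CPM at 3 µM and 317, 312 and 287 at 10 µM (0.52 ± 0.04, adjusted p = 1.04e-05). Its vehicle libraries, at 338 and 362 CPM, lay nearer to 10 µM than to 3 µM.

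**Figure D1:**
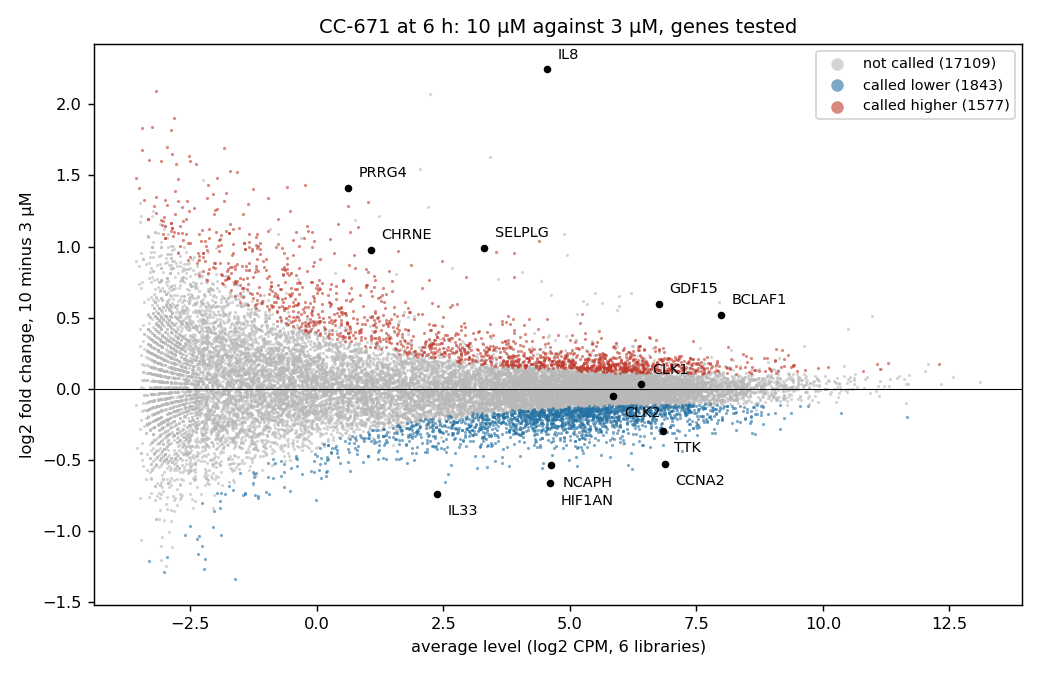
Each point is 1 of 20529 genes, with its average level over the 6 libraries on the horizontal axis (log2 CPM) and its log2 fold change, 10 minus 3 µM, on the vertical axis. Red and blue mark the 1577 genes called higher and the 1843 called lower, and black points are genes named in the text, of which IL8 has the largest change and is not called.

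The 15 largest rises, among called genes whose average log2 CPM was 1 or more, with no overlap between the doses, were led by genes with vehicle levels under 1 CPM. Small RNAs, pseudogenes and clone-named or uncharacterised loci are left out of this ranking, and some clone-named loci rose more. SELPLG, the P-selectin ligand of leukocytes, was at 6.63, 7.27 and 6.29 CPM at 3 µM and 13.4, 14.9 and 11.9 CPM at 10 µM, and its vehicle libraries were at 0.167 and 0.181 CPM. It rose by 0.99 ± 0.08 (adjusted p = 2.51e-05), and every 10 µM library exceeded every 3 µM library, which the ranking required. CHRNE, a subunit of the muscle acetylcholine receptor, rose by 0.98 ± 0.12 (adjusted p = 0.000133) from 1.55, 1.6 and 1.13 to 2.97, 2.59 and 2.88 CPM. CMYA5, a muscle protein, went from 9.27, 8.02 and 6.76 to 16.1, 13.8 and 17 CPM, and DCAF4L1 from 9.57, 11.5 and 9.86 to 20.8, 22.1 and 17 CPM, rises of 0.96 ± 0.13 and 0.95 ± 0.11. CCR6, the receptor of the chemokine CCL20, was at 3.86, 4.58 and 3.32 CPM at 3 µM and 7.73, 8.28 and 5.98 at 10 µM, against 0.0667 and 0.0602 in vehicle (0.90 ± 0.16, adjusted p = 0.00926). For these genes the 10 µM level was 1.87 to 1.99 times the 3 µM level. SELPLG, CMYA5, DCAF4L1 and CCR6 also belong to 6 genes listed because they had earlier been seen to rise from near silence, so their direction here is not independent evidence.

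The other 10 of these rises ranged from 0.71 to 0.87 on the log2 scale. IFI35, an interferon-induced protein, was at 3.29, 4.05 and 3.12 CPM at 3 µM and 6.18, 5.91 and 5.7 at 10 µM (0.76 ± 0.09), CD14, a co-receptor for bacterial lipopolysaccharide, at 1.58, 1.94 and 1.54 and 2.91, 2.89 and 2.51 (0.72 ± 0.11). CARD9, an adaptor of innate immune receptors, rose by 0.73 ± 0.12, and BAAT, an enzyme that conjugates bile acids, by 0.79 ± 0.09. The rises of SYNDIG1L, a synaptic membrane protein, SRRM5, LRIT3, a membrane protein of the retina, and the potassium channel KCNJ14 were 0.82, 0.83, 0.76 and 0.71. TMEM254-AS1 rose by 0.87 ± 0.11, but it is antisense to TMEM254 and the strand setting of the counts is not given in the sources used here, so the pair cannot be told apart. ADM2, a secreted peptide of the adrenomedullin family, was at 11.2, 11.3 and 11 CPM at 3 µM and 23.3, 18.9 and 15.7 at 10 µM (0.79 ± 0.15, adjusted p = 0.0217). Its 10 µM libraries were spread more widely than its 3 µM libraries, and its call ended without any 1 of the 3 µM libraries or without 10 µM replicate 2 (adjusted p over the alternatives 3.41e-07 to 0.106). The call of CCR6 ended without 3 µM replicate 1 (6.67e-23 to 0.0621 over the alternatives).

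Of the 15 largest falls, 14 are described here, from several processes, and all 14 had vehicle levels above those of the treated libraries. IL33, a nuclear cytokine released by damaged cells, was at 6.12, 6.4 and 7.17 CPM at 3 µM and 3.34, 4.0 and 4.53 at 10 µM, against 11.1 and 9.74 in vehicle. It fell by 0.73 ± 0.10 on the log2 scale (adjusted p = 0.000311), with no overlap between the doses, which the ranking required. HIF1AN, the asparagine hydroxylase that restrains the transcription factor HIF, was at 30.8, 28.9 and 31.5 CPM and 19.1, 17.1 and 21.5 CPM at the 2 doses and 79.5 and 81 in vehicle (-0.66 ± 0.07, adjusted p = 0.000157). CTR9, a subunit of the PAF1 complex that travels with RNA polymerase II, changed from 88.3, 88.6 and 97.8 to 59.3, 58.6 and 68.5 CPM (-0.56 ± 0.06, adjusted p = 0.000157).

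Several of the other falls were in genes of mitosis, replication forks, ribosomes and mitochondria. Among cell cycle genes, CCNA2, which encodes cyclin A2, was at 138, 134 and 152 CPM at 3 µM and 95.1, 96.6 and 104 at 10 µM (-0.52 ± 0.05, adjusted p = 1.89e-05). NCAPH, a condensin subunit, changed by -0.54 ± 0.07, and GPSM2, which orients the spindle, by -0.50 ± 0.05. HLTF and SMARCAL1, both ATPases that remodel stalled replication forks, changed by -0.54 ± 0.07 and -0.52 ± 0.06. NMD3, the export adaptor of the large ribosomal subunit, changed by -0.54 ± 0.07. The mitochondrial genes in the group were MTFMT, which formylates the initiator tRNA (-0.55 ± 0.06), LYRM7, which helps assemble respiratory complex III (-0.53 ± 0.08), and MRPS31, a mitochondrial ribosomal protein (-0.50 ± 0.06). The remaining genes described were ARMCX2 (-0.66 ± 0.08) and ELMOD2, a regulator of ARL GTPases (-0.55 ± 0.07). None of these 14 falls lost its call when any 1 library was left out. DSCC1, a cohesion factor followed because it is among the deepest early falls against vehicle, was at 5.07, 4.81 and 5.51 CPM at 3 µM and 4.91, 4.27 and 4.75 at 10 µM, overlapping levels that did not differ by the test (-0.14 ± 0.08, adjusted p = 0.227).

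**Figure D2:**
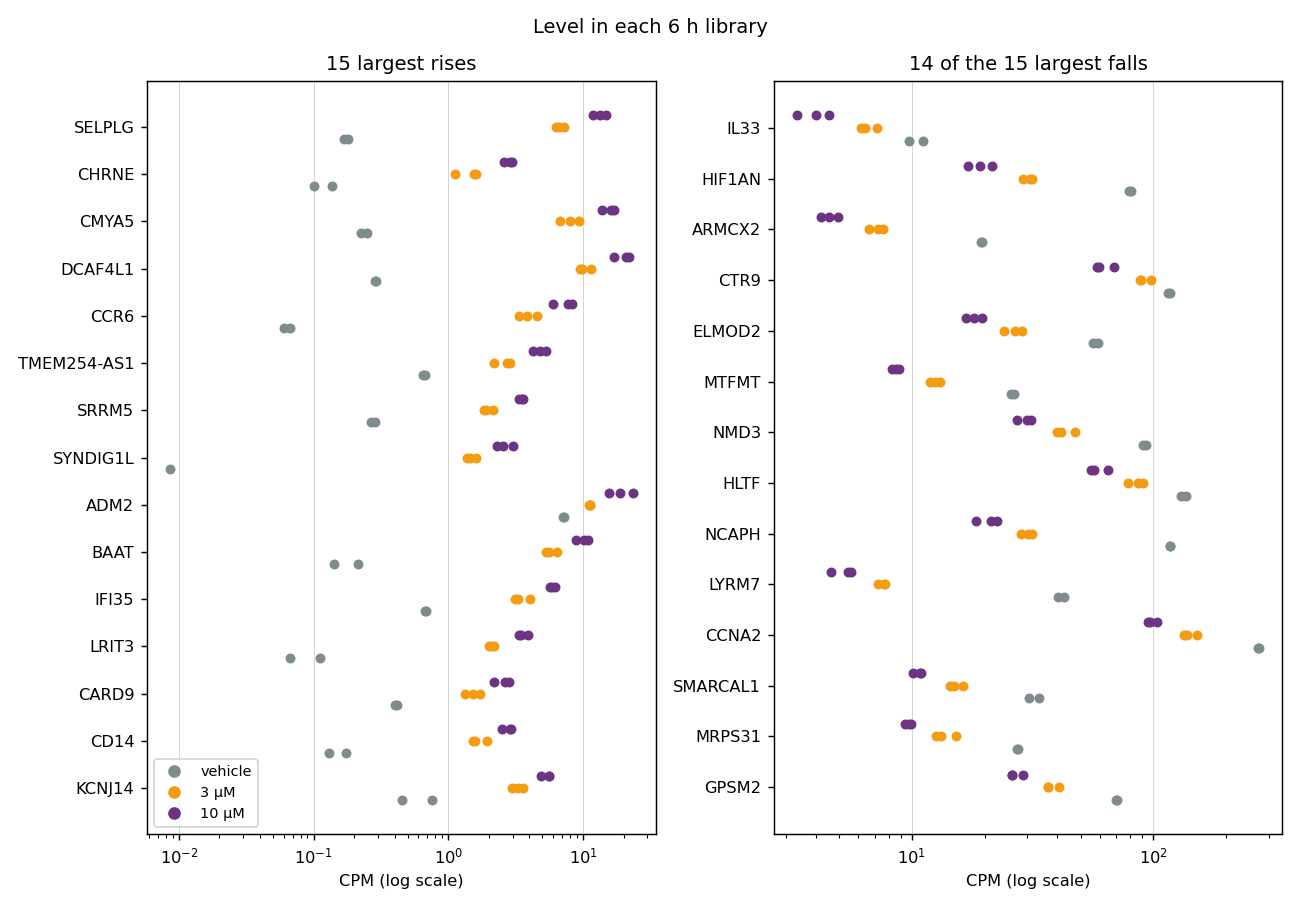
Points are single 6 h libraries (CPM, log scale) for the 15 largest rises (left) and 14 of the 15 largest falls (right), with grey for vehicle, orange for 3 µM and purple for 10 µM. The doses do not overlap because the naming rule required it; SELPLG runs from 6.29 to 7.27 CPM at 3 µM and from 11.9 to 14.9 at 10 µM, and 1 vehicle library of SYNDIG1L, at 0 CPM, is not drawn.

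Of TTK, CLK2 and its paralogs CLK1, CLK3 and CLK4, TTK alone differed between the doses. TTK was at 124, 126 and 139 CPM at 3 µM and 101, 104 and 112 CPM at 10 µM, with vehicle libraries at 102 and 100.3. It fell by 0.29 ± 0.05 (adjusted p = 0.000906), which placed the 10 µM libraries next to vehicle, and no single left-out library ended the call. CLK2 was at 63.2, 59.3 and 58.3 CPM at 3 µM and 58.7, 52.5 and 64 at 10 µM, overlapping ranges with a log2 fold change of -0.05 ± 0.06 (adjusted p = 0.673). The values were 0.03 ± 0.04 for CLK1, -0.02 ± 0.04 for CLK3 and 0.00 ± 0.05 for CLK4, and the sign of those for CLK2 and CLK4 depended on the setting. In the vehicle libraries CLK1 was at 41.9 and 44.9 CPM and CLK4 at 12.7 and 13.4 CPM, against 83.7, 84.8 and 89.8 and 31.9, 33.4 and 34 CPM at 3 µM. Among 11 other kinases of SR proteins or relatives, SRPK1 (-0.21 ± 0.04) and HIPK1 (-0.22 ± 0.04) were called lower, and DYRK1A (0.21 ± 0.04) and HIPK3 (0.13 ± 0.04) higher. SRPK1 phosphorylates SR proteins in the cytoplasm. Over all genes tested 7.68% were higher and 8.98% lower, and the 6 h counts of this and later lists stand beside these shares. The call of HIPK3 ended without 3 µM replicate 2 or 3 or 10 µM replicate 1 or 3.

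Of 40 genes of G2 and mitosis, 20 fell at the higher dose, 0 rose and 20 were not called, with a median log2 fold change of -0.15 beside 0.0025 over all genes tested. Besides CCNA2, the largest falls were in HMMR, a spindle-associated hyaluronan receptor, ECT2, an activator of RhoA in cytokinesis, and CDCA8, a subunit of the chromosomal passenger complex. HMMR was at 29.7, 28 and 31.6 CPM at 3 µM, 21.9, 20.8 and 21.9 at 10 µM and 91.7 and 90.3 in vehicle (-0.47 ± 0.05, adjusted p = 5.45e-05). ECT2 changed by -0.44 ± 0.06, from 174, 162 and 189 to 135, 119 and 135 CPM. CDCA8 changed by -0.38 ± 0.05, from 73.6, 76.6 and 82.7 to 57.7, 59.6 and 62.2 CPM. In all 4 genes each 10 µM library lay below each 3 µM library, and each vehicle library above both. The doses did not overlap in 98.07% of all called genes either. Of 28 genes of the spindle checkpoint and kinetochore, 17 fell, 1 rose and 10 were not called, with a median of -0.16. The checkpoint kinase BUB1 fell from 113, 113 and 123 to 89.6, 88.1 and 97.5 CPM (-0.34 ± 0.04, adjusted p = 0.000172). TRIP13, an ATPase that turns over the checkpoint protein MAD2, changed by -0.34 ± 0.05, the inner kinetochore protein CENPK by -0.36 ± 0.05 and SPC25, a subunit of the NDC80 complex, by -0.31 ± 0.06. MIS12, which links inner and outer kinetochore, moved the other way (0.17 ± 0.05, adjusted p = 0.0345, 0.00196 to 0.162 over the alternatives). Leaving out 1 library gave 14 to 21 falls in the mitosis list. In the kinetochore list it gave 11 falls without 3 µM replicate 3 and 13 to 16 otherwise, and the rise of MIS12 was then lost in 4 of 6 cases.

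The upstream sequences of HMMR, CDCA8 and CCNA2 are shown because many mitotic genes carry 2 promoter elements. These are the cell cycle homology region (searched for only as TTTGAA), read by the DREAM and MuvB complexes, and the CCAAT box, bound by NF-Y. Each line gives the 120 bases before the transcription start, 5′ to 3′ on the gene's strand, from RefSeq on GRCh38.p14, with the matches to the element in capitals. In HMMR (chr5:163460512-163460631, plus strand) and CDCA8 (chr1:37692396-37692515, plus strand) the capitals mark TTTGAA, and CCAAT boxes there are left in lower case. In CCNA2 (chr4:121823884-121824003, minus strand) they mark TGACGTCA, the cyclic AMP response element, and ATTGG, the CCAAT box on the other strand. The CCNA2 stretch holds no TTTGAA, but it holds cttgaa, which differs in the first letter. Variants of the element were not searched for, so its absence from CCNA2 cannot be read from this. For ECT2, not shown, the 120 bases at chr3:172750606-172750725 held 1 TTTGAA, at -115, and those at chr3:172750882-172751001 held 0.
HMMR: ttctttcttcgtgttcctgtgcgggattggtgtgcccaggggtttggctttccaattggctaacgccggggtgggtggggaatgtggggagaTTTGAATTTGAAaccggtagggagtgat
CDCA8: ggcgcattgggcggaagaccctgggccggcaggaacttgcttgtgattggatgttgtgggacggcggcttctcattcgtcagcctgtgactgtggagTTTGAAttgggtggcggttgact
CCNA2: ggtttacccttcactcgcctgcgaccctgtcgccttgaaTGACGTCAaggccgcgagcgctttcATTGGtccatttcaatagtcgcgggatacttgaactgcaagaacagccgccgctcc
Over the 250 bases upstream of any start of a gene, on either strand, TTTGAA was found in 20 of 35 mitosis genes tested that had a RefSeq entry (57.1%), in 12 of the 19 called ones (63.2%) and in 16.1% of all 27305 genes. CCAAT was found in 32 of the 35 (91.4%), in 17 of the 19 called (89.5%) and in 37% of all genes, and TGACGTCA in 2.03% of all genes. In the kinetochore list TTTGAA was found in 7 of 24 genes (29.2%) and in 3 of the 16 called (18.8%). CCAAT was found in 20 of 21 ER chaperone genes (95.2%). A match describes these letters and is not a test of binding.

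Of 46 replication genes driven by E2F, 17 fell and 0 rose, with a median of -0.11. PCNA, the sliding clamp of DNA polymerases, was at 205, 200.5 and 215 CPM at 3 µM and 161, 165 and 169.5 at 10 µM (-0.33 ± 0.04, adjusted p = 7.96e-05). RRM2, the small subunit of ribonucleotide reductase, changed from 450.1, 447 and 475 to 357, 365 and 379 CPM (-0.32 ± 0.04). The polymerase subunits POLD3 and POLE2 changed by -0.43 ± 0.05 and -0.40 ± 0.05. All 4 had no overlap between doses, as did 98.07% of all called genes. The count was 11 without 3 µM replicate 3 and 15 to 19 without any other library. Of 38 repair genes, 7 fell and 0 rose (median -0.06), and 2 fell without 3 µM replicate 3. Over all genes 8.98% were lower and 7.68% higher. FANCC, a Fanconi anaemia core protein, changed by -0.37 ± 0.06. Among 20 cyclins and inhibitors of G1 and S, RB1 (-0.33 ± 0.04), the ubiquitin ligase subunit SKP2 (-0.23 ± 0.04), the RB relative RBL1 (-0.20 ± 0.05) and cyclin E2 (CCNE2, -0.18 ± 0.05) fell, while the inhibitor CDKN1A rose. The 1 rise in this list is below the 7.68% of all genes. Without 3 µM replicate 3 the count of falls was 2. The call of RBL1 ended without 3 µM replicate 3 (adjusted p 0.000551 to 0.0839 over the alternatives). Of 13 tubulin genes 4 fell, among them TUBB4B (-0.17 ± 0.04) and TUBG1 (-0.14 ± 0.04), but 0 did without 3 µM replicate 2 or 3, 1 without 10 µM replicate 1 and 2 without 10 µM replicate 2.

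Of 32 targets of p53, the transcription factor that responds to DNA damage and other stress, 16 rose with dose, 0 fell and 16 were not called, with a median of 0.19. CDKN1A, which encodes the CDK inhibitor p21, was at 129, 144 and 138 CPM at 3 µM, 155, 170.1 and 159 at 10 µM and 63.5 and 66.6 in vehicle (0.23 ± 0.04, adjusted p = 0.0026). MDM2, the ubiquitin ligase of p53, was at 319, 323 and 323 CPM at 3 µM and 377, 385 and 382 at 10 µM (0.24 ± 0.03, adjusted p = 0.000288). Both genes had tight replicates and no overlap between doses, and 98.07% of all called genes had no overlap either. TP53INP1, a p53-induced regulator of cell death, rose by 0.34 ± 0.04 from 90.9, 96.4 and 92.1 to 114, 125 and 117 CPM. GDF15, a stress-induced cytokine, was at 80.7, 95.9 and 86.5 CPM at 3 µM and 142, 139.7 and 117 CPM at 10 µM (0.60 ± 0.10, adjusted p = 0.012), and its call ended without 3 µM replicate 3 or 10 µM replicate 2 (2.67e-16 to 0.0848 over the alternatives). The count of p53 targets was 9 without 3 µM replicate 3 and 13 to 17 without any other library. Of 15 genes of the BCL2 family, which sets the threshold of mitochondrial cell death, 5 rose and 1 fell. The shares over all genes were 7.68% and 8.98%. The cell death activators BBC3 (PUMA, 0.39 ± 0.07), PMAIP1 (NOXA, 0.29 ± 0.08) and HRK (0.74 ± 0.23) rose, and so did the survival gene BCL2 (0.17 ± 0.05). The effector BAK1 fell (-0.13 ± 0.04). BCL2 was at 35.1 and 37 CPM in vehicle, 23.9, 21.5 and 22.3 at 3 µM and 25.5, 25 and 25.5 at 10 µM, so its 10 µM level lay between the others. BBC3 alone of these 5 kept its call whichever library was left out. PMAIP1 and BBC3 are counted among the p53 targets too. The count of rises in the family was 2 without 10 µM replicate 1, 3 without 3 µM replicate 1 and 1 without 3 µM replicate 2 or 3.

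Of 27 targets of ATF4, the transcription factor made when translation initiation is restrained, 11 rose, 0 fell and 16 were not called, with a median of 0.27. SLC6A9, a glycine transporter, was at 11.2, 10.7 and 10.8 CPM at 3 µM and 16.4, 14.9 and 13.6 at 10 µM (0.45 ± 0.07, adjusted p = 0.000379). CEBPG, a bZIP partner of ATF4, rose by 0.30 ± 0.06 from 74.9, 75 and 76.5 to 101, 93.8 and 84.3 CPM, and NUPR1, a stress-induced chromatin protein, by 0.46 ± 0.11. CEBPB, another bZIP factor, rose by 0.36 ± 0.09, with 10 µM libraries at 63.8, 54.4 and 49.8 CPM, and its call ended without 3 µM replicate 1, 2 or 3 or 10 µM replicate 2. The call of NUPR1 ended without 3 µM replicate 3. The count was 5 without 3 µM replicate 3, 16 without 10 µM replicate 1 and 8 to 16 without any other library. Of 23 chaperones and unfolded protein response genes, 5 rose and 0 fell (median 0.14), among them the ubiquitin ligase SYVN1 (0.25 ± 0.05), the chaperone HYOU1 (0.22 ± 0.06), EDEM1, which directs misfolded glycoproteins to degradation (0.26 ± 0.07), and CRELD2 (0.17 ± 0.04). EDEM1 was at 61.3 and 64.4 CPM in vehicle, 39.1, 37.1 and 36.3 at 3 µM and 50.7, 42.7 and 41.7 at 10 µM, so the 10 µM libraries lay between the others. Each of these 4 calls ended without some 1 library, and the count was 1 without 3 µM replicate 3, 3 without 3 µM replicate 2 and 11 without 10 µM replicate 3.

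HSPA5, the main chaperone of the endoplasmic reticulum, was at 1669, 1703 and 1718 CPM at 3 µM and 3029, 2246 and 1994 CPM at 10 µM. All 10 µM libraries exceeded all 3 µM libraries, but their spread left the difference uncalled (0.51 ± 0.18, adjusted p = 0.147). Without 10 µM replicate 1 it was 0.31 ± 0.05 (adjusted p = 0.000977). With all 6 libraries kept, DESeq2, limma-voom, edgeR without the robust option and the fits of 12 or 16 libraries called HSPA5. Of 17 cytosolic heat shock genes, 0 rose and 4 fell: HSPA8, the constitutive HSP70 (-0.20 ± 0.04), its partner DNAJA1 (-0.20 ± 0.04), the HSP90 co-chaperone CHORDC1 (-0.40 ± 0.08) and HSPA4L (-0.13 ± 0.04). That count was 7 without 3 µM replicate 1, 2 without 3 µM replicate 2 or 10 µM replicate 2 and 1 without 3 µM replicate 3. HSPA6, an inducible HSP70 gene outside the naming rule, was singled out after its values were seen, at 1.8, 1.67 and 2.05 CPM at 3 µM and 18.7, 1.85 and 2.43 at 10 µM, where replicate 1 alone was high. Of 22 NRF2 genes of the oxidative stress response, 4 rose and 0 fell (median 0.04), beside 7.68% and 8.98% of all genes. The rises included OSGIN1 (0.39 ± 0.08) and NFE2L2, which encodes NRF2 itself (0.15 ± 0.04). Without 3 µM replicate 1 or 3 the count was 2 and 1, and the call of NFE2L2 ended without any 1 of the 3 µM libraries or without 10 µM replicate 1.

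Levels of several cytokine genes at 10 µM were spread widely, with 10 µM replicate 1 the highest. IL8 (CXCL8), the chemokine that attracts neutrophils, was at 10.3, 7.38 and 7.3 CPM at 3 µM, 86.6, 15.9 and 15.4 at 10 µM and 3.47 and 3.83 in vehicle. Replicate 1 at 10 µM was 5.45 times the next 10 µM library, and the difference was not called (2.24 ± 0.93, adjusted p = 0.205). Without that library it was 0.90 ± 0.15 and called (adjusted p = 0.0188). With all 6 libraries kept, DESeq2, limma-voom, edgeR without the robust option and the fits of 12 or 16 libraries called IL8 and IL6. IL6 was at 2.06, 2.32 and 1.98 CPM and 11.4, 4.01 and 3.0 CPM at the 2 doses (1.54 ± 0.66, adjusted p = 0.214), and 0.72 ± 0.12 without 10 µM replicate 1 (adjusted p = 0.00154). Of 19 cytokines and chemokines, 4 rose and 1 fell, with a median of 0.50 beside 0.0025 over all genes tested. The count of rises was 6 without 10 µM replicate 1. CXCL5 was at 30.5, 29.9 and 31.3 CPM at 3 µM and 40.7, 37.1 and 33.3 at 10 µM (0.28 ± 0.06, adjusted p = 0.0106). IL1B rose by 1.32 ± 0.37 from 0.0807, 0.0789 and 0.107 to 0.341, 0.155 and 0.167 CPM, and the lymphotoxin subunit LTB by 0.50 ± 0.16. The gene that fell was IL33. The calls of CXCL5, IL1B and LTB all ended without 3 µM replicate 2 or without 3 µM replicate 3. Those of IL1B and LTB also ended without 3 µM replicate 1 and without 10 µM replicate 1, where their differences were 0.84 ± 0.37 and 0.28 ± 0.15. Over the list the count of rises was 2 without 3 µM replicate 1, 1 without replicate 2 and 0 without replicate 3. None of 19 NF-kB subunits and feedback inhibitors was called by edgeR (median 0.10, 7 with an unadjusted p under 0.05), while DESeq2 called 2. Without 10 µM replicate 3 edgeR called 6 of them higher, and without 10 µM replicate 1 it called 2 higher and 1 lower.

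Of 26 immediate early genes of the AP-1 and EGR families, 6 rose and 0 fell (median 0.21). FOSL1, a FOS-related AP-1 subunit, was at 8.02, 8.25 and 7.83 CPM at 3 µM and 12.7, 9.92 and 9.38 at 10 µM (0.41 ± 0.11), and JUND, a JUN-related subunit, at 125, 128 and 118 and 145, 137 and 134 CPM (0.17 ± 0.04). The nuclear receptor NR4A2 rose by 0.46 ± 0.12 and KLF6 by 0.21 ± 0.06. In all 4 genes the highest 10 µM library was replicate 1. Without it the calls of KLF6 (0.12 ± 0.04) and JUND (0.13 ± 0.05) ended. All 4 calls ended without 3 µM replicate 3, and the count was 2 without 3 µM replicate 1 or 2 and 0 without replicate 3. MYC, the growth regulator, was at 55.8, 54.4 and 54.8 CPM at 3 µM and 87.1, 61.8 and 57.1 at 10 µM and was not called (0.32 ± 0.19, adjusted p = 0.346). Without 10 µM replicate 1 its difference was 0.11 ± 0.05. In its network of 12 genes the MYC antagonists MNT (0.36 ± 0.05) and MXD1 (0.42 ± 0.08) rose and MLX fell (-0.14 ± 0.04). These 2 rises and 1 fall stand beside 7.68% higher and 8.98% lower over all genes. The calls of MXD1 and MLX ended without 3 µM replicate 3. Of 18 feedback genes of the ERK pathway, 0 rose and 3 fell (7.68% and 8.98% over all genes). Among the falls was DUSP6, a phosphatase of ERK (-0.13 ± 0.04). None of the 18 was lower by the test without 3 µM replicate 2, 3 µM replicate 3 or 10 µM replicate 1. Without 3 µM replicate 1 or 10 µM replicate 2, 1 was.

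**Figure D3:**
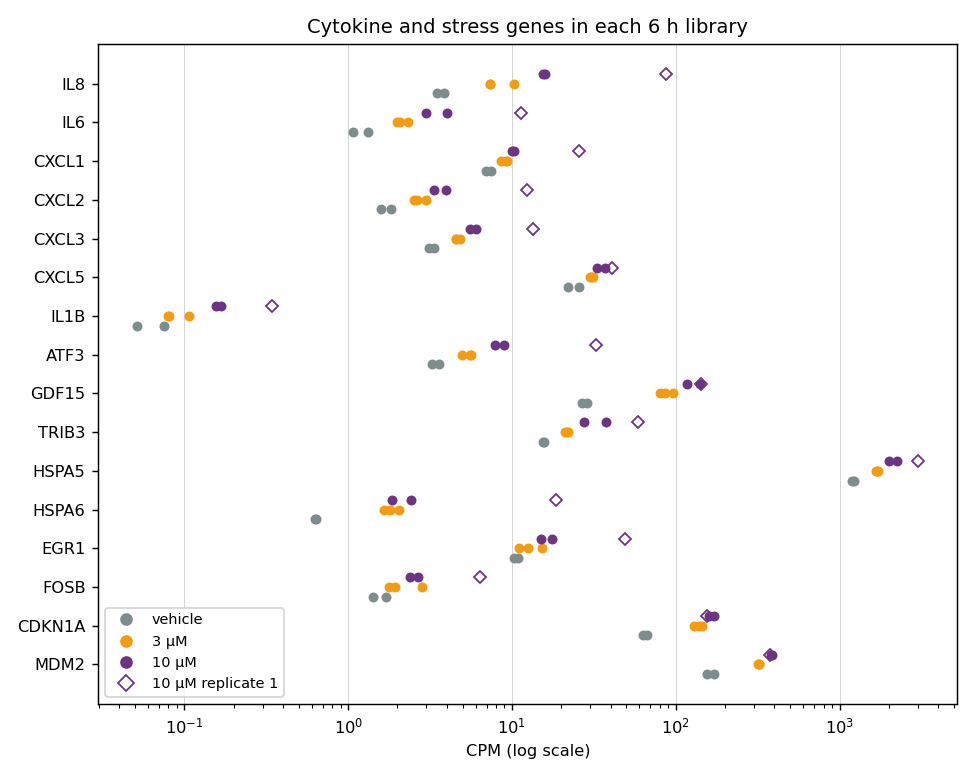
Points are single 6 h libraries (CPM, log scale) for 16 cytokine and stress genes, grey for vehicle, orange for 3 µM and purple for 10 µM, with an open diamond for 10 µM replicate 1. The diamond lies far to the right of the other 10 µM libraries for IL8 (86.6 against 15.4 and 15.9 CPM), ATF3 and HSPA6, and among them for CDKN1A, MDM2 and GDF15.

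Among 14 SR splicing factors, substrates of the CLK kinases, SRSF10 rose from 14.8, 13.8 and 14.7 to 19.6, 18.1 and 18 CPM (0.36 ± 0.05, adjusted p = 0.000473), with vehicle at 26.2 and 29.8, so its 10 µM level lay between the others. SRSF11 rose by 0.11 ± 0.03 and SRSF7 fell by 0.24 ± 0.07. The 2 rises and 1 fall in this list of 14 stand beside 7.68% higher and 8.98% lower over all genes. The call of SRSF11 ended without any 1 library and that of SRSF7 without 3 µM replicate 2 or 3 or 10 µM replicate 2 or 3. Of 22 hnRNP genes, 7 fell and 3 rose. HNRNPLL (-0.22 ± 0.04), HNRNPAB (-0.22 ± 0.04) and HNRNPUL1 (-0.17 ± 0.04) fell, while PTBP2, the neuronal polypyrimidine tract binding protein, rose (0.20 ± 0.04), as did HNRNPDL (0.13 ± 0.04) and HNRNPA1 (0.11 ± 0.04). Without 3 µM replicate 3, 3 fell and 1 rose. The call of HNRNPA1 ended without any 1 library, and that of HNRNPDL did without every library but 10 µM replicate 1. Of 36 core spliceosome genes, 10 fell and 1 rose, SNRPA of the U1 particle (0.17 ± 0.04). PLRG1 of the PRP19 complex changed by -0.40 ± 0.07 and SNRPD1, a Sm core protein, by -0.31 ± 0.04, and the helicases DHX8 and DHX15, which release the mRNA and the lariat, by -0.25 ± 0.04 and -0.24 ± 0.04. Leaving out 1 library gave 8 to 10 falls.

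Of 25 factors of 3′ end processing and termination, 8 fell and 1 rose. CSTF2, a subunit of the cleavage stimulation factor, was at 23.9, 24.5 and 24.6 CPM at 3 µM, 18.9, 18.9 and 19.4 at 10 µM and 40.5 and 38.2 in vehicle (-0.35 ± 0.04, adjusted p = 0.000157). NUDT21, which steers the choice of poly-A site, changed by -0.27 ± 0.04, and the cleavage factors CPSF2 and CPSF3 by -0.22 ± 0.04 and -0.21 ± 0.04. SCAF4, which restrains early termination, rose (0.14 ± 0.04). Without 10 µM replicate 1 or 3 µM replicate 3 the count of falls was 5 and the call of SCAF4 was lost, as it was without 3 µM replicate 2 or 10 µM replicate 3. Of 27 transcription kinases, cyclins and related genes, CCNC of Mediator (-0.31 ± 0.04) and CCNH of TFIIH (-0.29 ± 0.05) fell, and 2 genes rose, among them CCNT1 of P-TEFb (0.18 ± 0.04), whose call ended without 3 µM replicate 3. These shares are below those of all genes (7.68% higher and 8.98% lower). In that list 5 genes rose without 10 µM replicate 2, 0 rose without 3 µM replicate 3 and 4 fell without 3 µM replicate 1. Of 17 speckle RNAs and scaffold genes, SRRM1 (0.16 ± 0.03) and LUC7L3 (0.17 ± 0.04) rose and LUC7L fell (-0.21 ± 0.04). These 2 rises and 1 fall are near the shares of all genes (7.68% higher and 8.98% lower). The list had 8 rises without 10 µM replicate 2 and 4 without 3 µM replicate 1. Of 16 factors of nonsense-mediated decay 4 fell, UPF2 (-0.27 ± 0.05), UPF1 (-0.17 ± 0.05), MAGOH (-0.17 ± 0.04) and SMG9 (-0.15 ± 0.05), of which UPF2 kept its call whichever library was left out. That count was 1 without 3 µM replicate 2 or 3 and 2 without 10 µM replicate 2.

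Read pairs outside annotated exons were 6.65 ± 0.377% (SD, n = 3) of the pairs counted at genes, outside them or at several genes at 10 µM and 5.91 ± 0.381% at 3 µM, a difference of 0.742 percentage points. The values of the doses did not separate fully, since 3 µM replicate 1, at 6.35%, exceeded 10 µM replicate 2, at 6.25%. An exact permutation test over the 20 arrangements of the libraries gave p = 0.2 (two-sided, smallest possible 0.1). The vehicle libraries at 6 h were at 4.38 and 4.76%.

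Of 18 host genes of small nucleolar RNAs, whose spliced RNAs are often degraded in the cytoplasm, 9 rose and 0 fell, with a median of 0.18. SNHG1 was at 517, 564 and 530.0 CPM at 3 µM, 651, 683 and 619 at 10 µM and 145 and 144 in vehicle (0.28 ± 0.04, adjusted p = 0.000834). EPB41L4A-AS1 rose by 0.35 ± 0.05, SNHG17 by 0.38 ± 0.08 and TAF1D by 0.27 ± 0.05. The count was 5 without 3 µM replicate 3, where SNHG17 lost its call, and 8 to 11 otherwise. Of 34 factors of ribosome biogenesis, 10 fell and 0 rose (median -0.07). LTV1, an assembly factor of the small ribosomal subunit, changed from 29.7, 28.6 and 33.7 to 23.8, 21.7 and 24 CPM (-0.40 ± 0.06) and UTP18, of the small subunit processome, by -0.37 ± 0.05. The count was 4 without 3 µM replicate 3 and 7 to 8 otherwise. Of 73 cytosolic ribosomal protein genes, 3 rose and 0 fell, a share below the 7.68% of all genes. None rose without 3 µM replicate 1 or 3, 1 without 10 µM replicate 1, and 5 fell without 10 µM replicate 2. Of 31 proteasome subunits, 11 fell and 0 rose (median -0.08), with PSMC6, an ATPase of the regulatory particle, at -0.31 ± 0.04 and the other subunits PSMD1, PSMC2 and PSMC5 at -0.21, -0.18 and -0.16. That count was 4 without 10 µM replicate 1 and 5 without 10 µM replicate 3 or 3 µM replicate 2 or 3.

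Of 17 histone genes seen in poly-A RNA, 5 rose and 0 fell (median 0.26). HIST2H2BE was at 8.83, 10.6 and 9.91 CPM at 3 µM and 11.9, 12.2 and 11.7 at 10 µM (0.28 ± 0.06), and HIST3H2A at 6.3, 7.23 and 6.52 and 8.7, 8.41 and 7.54 CPM (0.30 ± 0.07). HIST1H2BG, at 0.587, 0.584 and 0.444 CPM at 10 µM, and HIST1H2BN, at 0.86, 0.748 and 0.916, rose by 0.82 ± 0.22 and 0.48 ± 0.16 from 0.359, 0.36 and 0.196 and 0.681, 0.623 and 0.507 CPM at 3 µM. The count was 1 without 10 µM replicate 1 and 0 without 3 µM replicate 3, and near-identical copies make single histone values uncertain. Of 37 nuclear genes of oxidative phosphorylation 3 fell and 0 rose, below the 8.98% of all genes that were lower and the 7.68% that were higher. In that list 13 fell without 10 µM replicate 2, and 1 without 10 µM replicate 1 or 3 or 3 µM replicate 2 or 3. None of 13 mitochondrially encoded mRNAs was called by edgeR or DESeq2 (0 with an unadjusted p under 0.05), but 4 were higher without 10 µM replicate 2 and 1 lower without 10 µM replicate 1.

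Among the other lists, 5 of 18 targets of YAP and TEAD, the effectors of the Hippo pathway, rose, led by the Hippo kinase LATS2, from 112, 106 and 106 to 132, 129.8 and 126 CPM (0.26 ± 0.04, adjusted p = 0.000451). Without 10 µM replicate 1 the count was 2 and without 3 µM replicate 2 or 3 it was 1. Of 26 collagen, laminin and integrin genes 6 rose, with the basement membrane collagen COL4A2 at 0.16 ± 0.04, and the integrin ITGA6 fell (-0.12 ± 0.04). The 1 fall is below the 8.98% of all genes that were lower, and 7.68% were higher. In that list 2 rose without 10 µM replicate 1, 1 without 3 µM replicate 2 and 3 without 3 µM replicate 3. Of 18 growth factor receptor kinases INSR (0.23 ± 0.05), IGF1R (0.23 ± 0.04) and FGFR2 (0.11 ± 0.04) rose, and FGFR2 lost its call without any 1 library. Of 22 interferon-stimulated genes, IFI35 and ISG20 (0.49 ± 0.09) rose and IRF7 (-0.36 ± 0.07) and IFIT1 (-0.30 ± 0.08) fell. The 2 calls in each direction are near the share of all genes (7.68% higher and 8.98% lower). The call of IFIT1 ended without 3 µM replicate 2 or 3 or 10 µM replicate 1, and 5 fell without 10 µM replicate 3. Other lists with calls near or below the share of all genes included hypoxia and glycolysis (2 of 22 lower, HIF1AN and BNIP3L), sterol synthesis (1 of 28 lower, ACAT2 at -0.18 ± 0.04), aryl hydrocarbon receptor targets (1 of 12 in each direction, with the receptor's partner ARNT at -0.31 ± 0.05), metallothioneins and zinc transport (1 of 9 higher, SLC30A1 at 0.19 ± 0.04), lysosome and autophagy (2 of 23 higher) and BMP and ID genes (0 of 15 by edgeR and DESeq2, 2 with an unadjusted p under 0.05). Without 3 µM replicate 3 the hypoxia list had 1 fall, lysosome and autophagy 0 rises and the aryl hydrocarbon receptor list 0 rises, as the latter did without 3 µM replicate 1 or 2 or 10 µM replicate 1. Lysosome and autophagy had 1 rise without 3 µM replicate 1 or 2 or 10 µM replicate 1, and the metallothionein list 2 without 3 µM replicate 1.

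**Figure D4:**
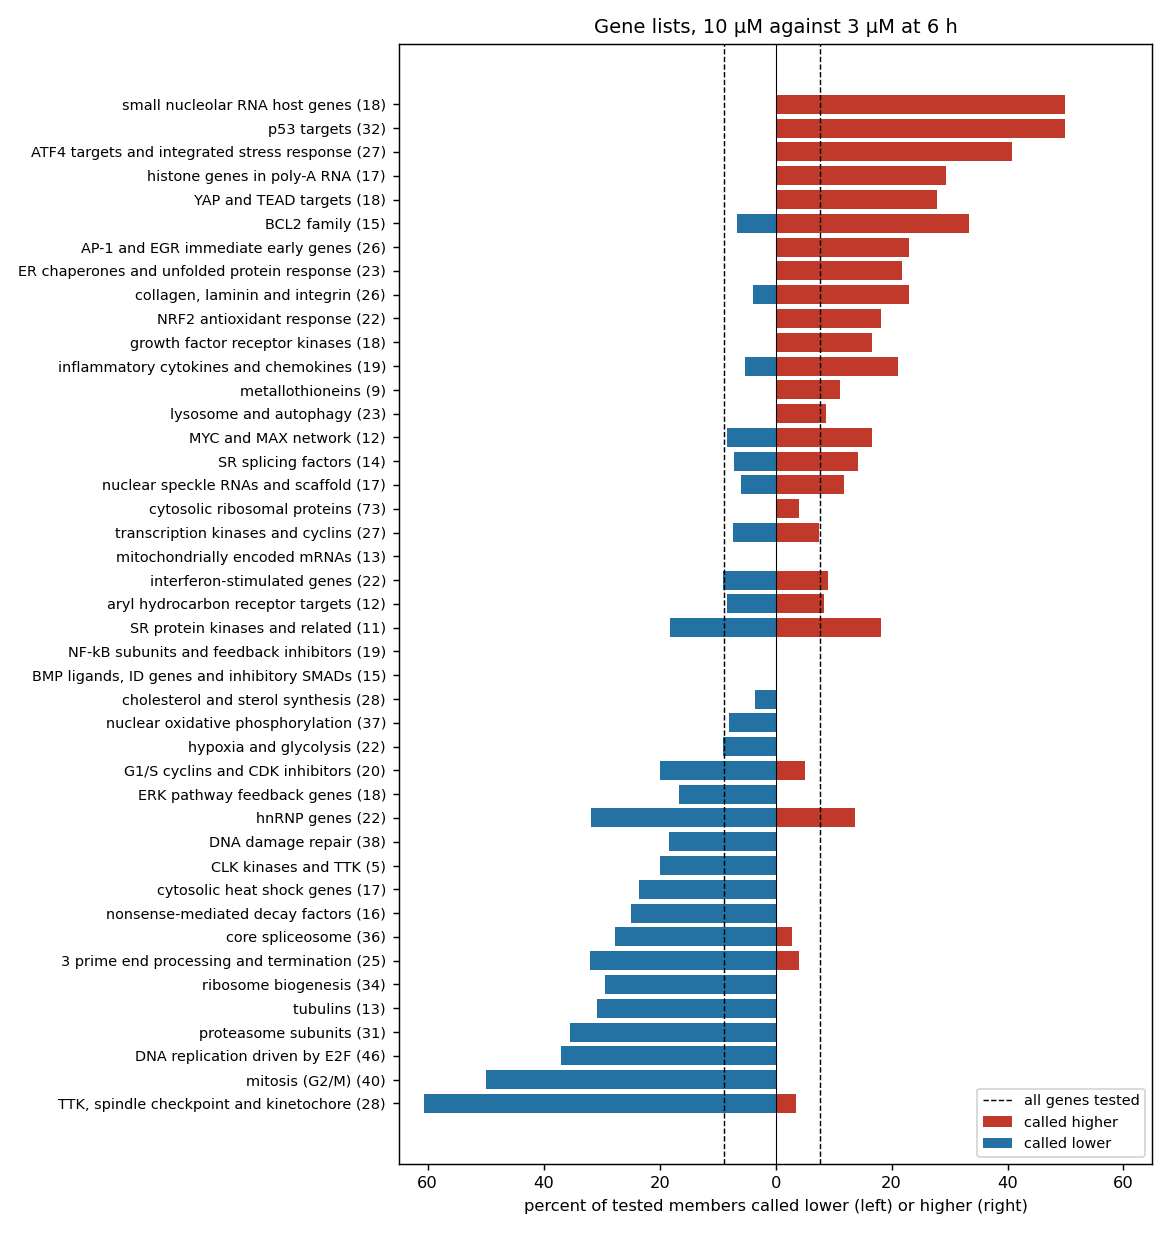
Bars give, for each of 43 gene lists, the percent of tested members (number in brackets) called higher (red, right) or lower (blue, left) at 10 µM, and dashed lines give the shares over all genes, 7.68% and 8.98%. Small nucleolar RNA host genes and p53 targets have the longest bars to the right (9 of 18 and 16 of 32), and the kinetochore and mitosis lists the longest to the left (17 of 28 and 20 of 40).

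The calls differed with the structure of genes, read from GENCODE 29. Of 311 protein-coding genes with 1 exon, 16.1% were higher and 1.61% lower at 10 µM. Of 2148 with 2 to 4 exons, 11.8% were higher and 4.38% lower. The shares crossed at 5 to 8 exons, with 7.68% of 3960 genes higher and 10.4% lower. With 9 to 16 exons 6.29% of 4628 genes were higher and 14.5% lower, and with 17 to 32 exons the values were 6.57 and 15.2% of 2571 genes. The 579 genes with at least 33 exons broke the order, with 8.12% higher and 4.15% lower. Within genes at an average log2 CPM of 3 to 7 the shares lower were 5.72% with 2 to 4 exons, 14.7% with 5 to 8, 19.3% with 9 to 16, 19.7% with 17 to 32 and 6.03% with at least 33. Of 234 lincRNA genes, 13.7% were higher and 1.28% lower. Their median average log2 CPM was -0.93, and of all 6175 genes at -20 to 0, 5.68% were higher and 0.956% lower. The part of level in the lincRNA shares was not tested. The median log2 fold changes of these groups lay between -0.04 and 0.10. The counts matched this annotation for 16712 of the 20529 genes, and the matching rests on symbols. Exon number differs between the gene lists too, and its part in their counts was not tested.

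The dose step was also measured at 24 h, in 6 other libraries. There 1240 of 21402 genes differed between the doses (5.79%), 445 higher (2.08%) and 795 lower (3.71%). Without any 1 of the 24 h libraries the counts were 138 to 209 higher and 338 to 505 lower. Of the 1575 genes called higher at 6 h and tested at 24 h, 116 were also higher at 24 h and 18 were lower. Of the 1843 called lower at 6 h, 113 were lower at 24 h and 20 higher. Across 20514 genes, which are not independent replicates, the log2 fold changes at the 2 times had r = 0.128. The change of the dose difference from 6 to 24 h was called for 2422 genes (11.3%), 1376 of them upward (6.43%) and 1046 downward (4.89%), and for 1497 without 24 h 10 µM replicate 3. The genes named above were chosen on the 6 h values that enter this difference, so their calls here are not independent of that choice. All 14 falls described above were called in it, and 1 of them, CCNA2, was itself called at 24 h (-0.16 ± 0.04). HIF1AN, at 78.3, 78.5 and 79.2 CPM at 3 µM and 79.1, 81.6 and 78 at 10 µM after 24 h, had overlapping levels there (0.01 ± 0.05). Of the 15 largest rises 8 were called in the difference, and SRRM5, SYNDIG1L and IFI35 were higher at 24 h too (0.51 ± 0.11, 0.49 ± 0.11 and 0.62 ± 0.12). SELPLG was at 0.489, 0.482 and 0.409 CPM at 3 µM and 0.461, 0.452 and 0.475 CPM at 10 µM after 24 h (0.01 ± 0.17). Among the stress genes higher at both times were GDF15, NUPR1 and SLC6A9. Their differences at 24 h were 0.36 ± 0.08 (adjusted p = 0.0435), 0.73 ± 0.06 (adjusted p = 2.04e-07) and 0.22 ± 0.06 (adjusted p = 0.0221). CDKN1A was at 232, 222 and 220.4 CPM at 3 µM and 218, 217 and 218 at 10 µM after 24 h and was not called there (-0.05 ± 0.04).

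At 24 h, 2.08% of all genes tested were higher and 3.71% lower. By list, the mitosis genes had 20 of 40 lower at 24 h in the fit of 12 libraries, and the median was -0.12. The kinetochore list had 4 of 28 lower, replication 13 of 46, and p53 targets 4 of 32 higher. ATF4 targets had 3 of 27 higher, with a median of 0.10. The 6 h counts above come from the fit of 6 libraries and are not set against these. The change of the dose difference from 6 h to 24 h was itself called for 11 of 40 mitosis genes, 10 of 28 kinetochore genes, 10 of 46 replication genes and 12 of 32 p53 targets, beside 11.3% of all genes tested. Small nucleolar RNA host genes had 10 of 18 higher and 1 lower at 24 h. Lysosome and autophagy genes had 11 of 23 higher at 24 h, and tubulins 7 of 13 lower. The change from 6 h was called for 4 of the small nucleolar RNA host genes, 2 of the lysosome and autophagy genes and 2 of the tubulins.

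**Figure D5:**
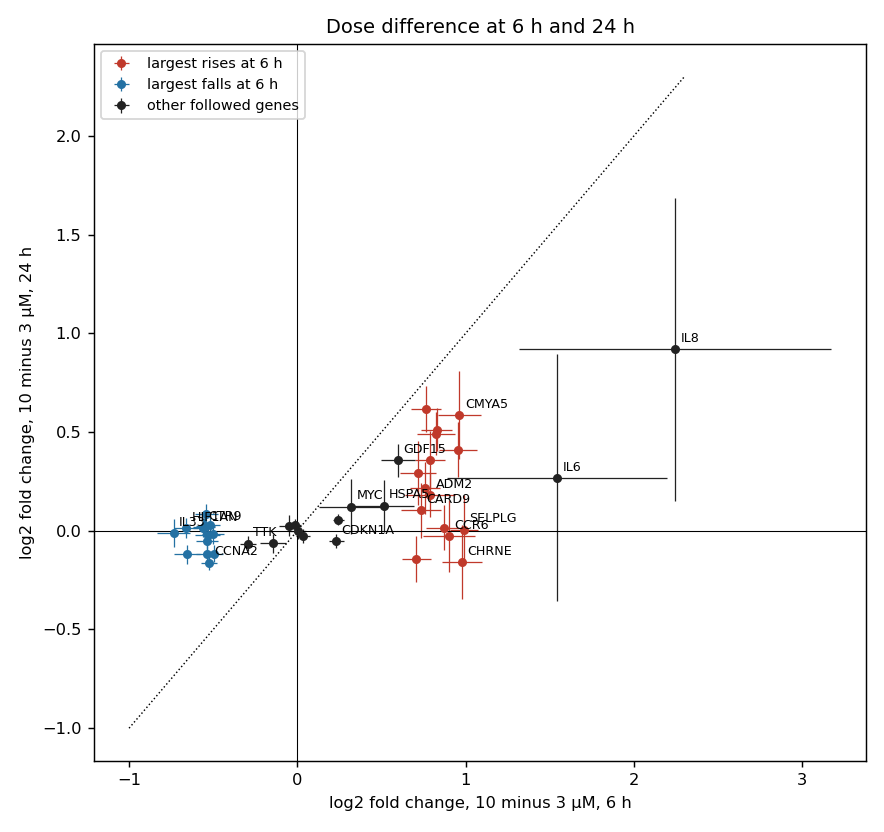
Points are 42 of the largest and followed genes, with the log2 fold change, 10 minus 3 µM, at 6 h on the horizontal and at 24 h on the vertical axis, bars of 1 SE and a dotted line of equal change. The 14 falls at 6 h lie between -0.16 and 0.08 at 24 h, and the largest rises lie below the dotted line.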

How the data were processed

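Poly-A RNA of CAL51 cells was sequenced strand-specifically on a HiSeq 2500 with paired reads of 100 bases, per the labels' protocols. The authors deposited raw counts of read pairs per gene symbol, 1 file per library, which the submitters' processing notes tie to STAR, HTSeq, edgeR and hg19 (GRCh37). Versions, the annotation release, the strand and overlap settings and the handling of duplicates were not given in the sources used here.

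The 5 closing counter rows of each file were left out of totals and tests (the 6 libraries held 5.67 to 7.00% of pairs outside annotated exons). Groups were taken from the labels. The 10 µM and 3 µM libraries at 6 h were compared with edgeR 4.0.16 in R 4.3.3 (filterByExpr with a minimum count of 10, TMM scaling, robust quasi-likelihood test, 2-sided, Benjamini-Hochberg adjustment over all 20529 genes, calls at adjusted p under 0.05, which are what rose, fell, higher and lower by the test mean). Fold changes are log2, 10 minus 3 µM, with their standard error. The 24 h difference and its change from 6 h came from 1 fit of the 12 treated libraries. With 110206660 to 120064702 pairs a library, single pairs limit only genes well under 1 CPM. The fit was tested on simulated data with a small number of changed genes. There 19 of 160 calls were false (11.9%), above the nominal rate. The smallest changes were often missed, with 55.4% of 1.25-fold changes recovered, and changes smaller than that were not planted.

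Named genes were the 15 largest rises and falls among called genes whose average log2 CPM was 1 or more, with no overlap between doses. That ranking left out small RNAs, pseudogenes, clone-named genes and names of the LINC, orf, KIAA and FAM series. Also named were up to 4 called members per list by size and called members that moved against their list. Genes followed in all cases were TTK, CLK1 to CLK4, CDKN1A, MDM2, GDF15, MYC, IL8, IL6, HSPA5 and DSCC1. The members, lists and tests were chosen with earlier results of these data known. BCLAF1, PRRG4, CCNE2, VIM, HSPA6, EPCAM and ATF3 fall outside this rule and were added with their values seen. Of the 15 largest falls 1, and a few list members, are not reported here. GENCODE 29 gave exon numbers and RefSeq (GRCh38.p14) upstream sequences, matched by symbol, and no coordinates were converted. Same-numbered libraries deviated from their group means with r of 0.02, 0.12 and -0.01, so numbers were not treated as pairs. Alternatives were DESeq2 1.42.0, limma-voom 3.58.1, other scaling, filters and fits, and leaving out each library.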

Additional observations from a re-analysis of the deposited data

Results flagged for a closer look

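The dose difference was not the same at both times for 2422 genes, by a test of the difference itself (edgeR, adjusted p under 0.05, 12 treated libraries). Each value below is the log2 dose difference at 24 h minus that at 6 h. The named genes were chosen for large 6 h differences, so this test is not independent of that choice.

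Among the rises at 6 h, the difference was smaller at 24 h by this test for SELPLG (-0.99), CHRNE (-1.14), CCR6 (-0.93), TMEM254-AS1 (-0.86), ADM2 (-0.61), LRIT3 (-0.54), CARD9 (-0.63) and KCNJ14 (-0.85). CHRNE was at 1.03, 0.685 and 0.907 CPM at 3 µM and 0.644, 1.01 and 0.708 at 10 µM after 24 h, where the groups overlapped.

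The 14 largest falls reported had a called change in the other direction. The values were 0.72 for IL33, 0.67 for HIF1AN, 0.53 for ARMCX2, 0.57 for CTR9, 0.57 for ELMOD2, 0.57 for MTFMT and 0.62 for NMD3. They were 0.48 for HLTF, 0.42 for NCAPH, 0.51 for LYRM7, 0.36 for CCNA2, 0.54 for SMARCAL1, 0.48 for MRPS31 and 0.38 for GPSM2. NMD3 was at 76.5, 77.2 and 76.1 CPM at 3 µM and 82.5, 79.1 and 82.2 at 10 µM after 24 h.

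Of the genes followed in all cases, TTK (0.23), CDKN1A (-0.29) and MDM2 (-0.19) also had a called change. TTK was at 96.9, 98.5 and 97.3 CPM at 3 µM and 94.6, 90.4 and 95.3 at 10 µM after 24 h, and MDM2 at 394, 402 and 394 and 415, 414 and 412 CPM.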

How the results depend on the processing

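The 1577 rises became 2649 with all 16 libraries in the fit and 2545 with the 12 treated ones, and 519 to 1787 with 1 library left out. The 1843 falls became 2831 with all 16 libraries and 739 to 1783 with 1 left out. The 124 rises of at least 2-fold became 42 with DESeq2, 15 with the stricter filter and 57 to 140 with 1 library left out. The 12 falls of that size became 0 with DESeq2, 30 without the filter, 0 with the stricter filter, 27 with all 16 libraries, 23 with the 12 treated ones and 6 to 16 with 1 left out. The stricter filter leaves fewer genes to test, and for the other settings the cause was not tested. At 24 h, leaving out 1 library gave 138 to 691 rises and 338 to 976 falls, and 1497 to 2961 genes in the difference between the times. The replicate number as a block gave 2283 rises and 2576 falls at 6 h, though the labels give the numbers no meaning and the libraries were not paired. CLK4 turned to -0.00133 without scaling, -0.00623 without the filter, -0.0257 without 3 µM replicate 1, -0.0224 without 10 µM replicate 1 and -0.0123 without 10 µM replicate 2, and CLK2 to 0.0252 without 10 µM replicate 2 (ranges with 1 library left out, -0.0257 to 0.0455 and -0.116 to 0.0252). DESeq2 did not call HIST1H2BN, IL1B, LTB, CD79A or TUBA4A and called IL8, IL6 and HSPA5. Limma-voom, edgeR without the robust option and the fits of 12 or 16 libraries also called IL8, IL6 and HSPA5. Rises were 40.6 to 50.1% of calls over all settings (46.1% as reported). Depth limits genes well under 1 CPM, where single pairs weigh.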
